A study of Homo sapiens with 16 samples.

Results

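Animal cells hold their cholesterol within a narrow range by adjusting how much they make, take up and export, and 9 genes of that control circuit are described here across 4 groups of leukaemia cells. They are SREBF1, SREBF2, SCAP, INSIG1, INSIG2, MYLIP, NPC1, STARD4 and ABCA1, chosen by name for their roles, with earlier results of these data known. All 9 were found among the 22445 Ensembl gene IDs of the processed table, and all 9 passed the filter on low levels.

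The cells were Molm14, an established human acute myeloid leukaemia line with a rearrangement of KMT2A, grown in medium with 10% fetal bovine serum. Combo cells received 0.16 uM EPZ5676, which inhibits DOT1L, together with 0.3 uM GSK126, which inhibits EZH2. The iEZH2 cells received GSK126 alone, the iDOT1L cells EPZ5676 alone, and the DMSO cells solvent. Exposure lasted 7 days with renewal on day 4, and each group had 4 RNA-seq libraries, so every group is the same cell line and the same serum. The doses and the time are those stated for the series, and 1 dose of each compound was used. The labels do not say whether the libraries of a group came from separate cultures, and the p-values therefore reflect the scatter among these libraries, which may be technical. DOT1L methylates lysine 79 of histone H3, and EZH2 is the catalytic subunit of Polycomb repressive complex 2, which methylates lysine 27.

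SREBF1 and SREBF2 encode the sterol regulatory element-binding proteins, transcription factors made as membrane proteins of the endoplasmic reticulum. SCAP carries them to the Golgi, where proteases release the active part, which then turns on genes of cholesterol synthesis, fatty acid synthesis and lipoprotein uptake. When sterols are plentiful, INSIG1 and INSIG2 hold SCAP in the endoplasmic reticulum and the factors stay inactive. INSIG1 and SREBF2 are themselves known targets of the factors. Oxysterols activate the liver X receptors (LXRs), which turn on export through ABCA1 and raise MYLIP, an E3 ubiquitin ligase that limits lipoprotein uptake. NPC1 moves cholesterol out of lysosomes, and STARD4 carries it between membranes inside the cell.

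Levels are given as normalised counts, that is, read counts scaled between libraries. A gene is called changed where limma with Benjamini-Hochberg adjustment over 22331 genes gave an adjusted p under 0.05, and fold changes are differences on log2(normalised count + 1), the first-named group minus the second, with their SE. The libraries held an estimated 20.7 to 27.4 M reads. All 10 myeloid markers examined averaged at least 10 normalised counts in every group. Of the erythroid and hepatocyte markers present in the table none averaged 10 in any group, and the summed level of 2 T cell markers stayed between 8.24 and 38.5. Summed levels of B cell markers were 526.3 to 847.2 in Combo and 1002 to 1423 in DMSO, mostly PAX5, with MS4A1 at 0 to 9.16 in all groups. Summed levels of epithelial markers were 545 to 805 in Combo and 807.1 to 938.6 in DMSO, mostly KRT18, and EPCAM did not pass 22.9 in any library. Summed levels of fibroblast markers were 240.9 to 306.2 in Combo and 88.3 to 151.5 in DMSO, mostly COL1A1, with COL3A1 at 1.44 to 25.9 in all groups. The part of these markers in the results was not tested.

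The DNA before the start of 3 of these genes is shown because their transcripts moved the most or carry a known sterol element. Each is 300 bases from RefSeq (GRCh38.p14), running from 250 bases before the start to 50 bases after it, written on the gene's own strand. Capitals mark matches to a sterol regulatory element (TCACNCCAC), an E-box (CACGTG) or an LXR element of the DR4 type, searched on both strands. The windows lie at chr22:41832855-41833154 on the plus strand for SREBF2, chr7:155297628-155297927 on the plus strand for INSIG1 and chr9:104928106-104928405 on the minus strand for ABCA1.
SREBF2: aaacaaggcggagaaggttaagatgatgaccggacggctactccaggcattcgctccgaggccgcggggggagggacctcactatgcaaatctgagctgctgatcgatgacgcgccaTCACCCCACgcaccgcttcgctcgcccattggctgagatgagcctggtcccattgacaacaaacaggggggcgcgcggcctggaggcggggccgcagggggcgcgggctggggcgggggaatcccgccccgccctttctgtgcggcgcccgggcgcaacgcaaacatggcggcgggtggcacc
INSIG1: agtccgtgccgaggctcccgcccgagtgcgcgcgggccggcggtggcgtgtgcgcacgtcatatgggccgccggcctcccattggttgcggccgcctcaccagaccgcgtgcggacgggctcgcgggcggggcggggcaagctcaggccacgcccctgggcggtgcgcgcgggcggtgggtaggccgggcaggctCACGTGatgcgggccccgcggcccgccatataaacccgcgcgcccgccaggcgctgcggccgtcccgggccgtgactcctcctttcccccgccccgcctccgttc
ABCA1: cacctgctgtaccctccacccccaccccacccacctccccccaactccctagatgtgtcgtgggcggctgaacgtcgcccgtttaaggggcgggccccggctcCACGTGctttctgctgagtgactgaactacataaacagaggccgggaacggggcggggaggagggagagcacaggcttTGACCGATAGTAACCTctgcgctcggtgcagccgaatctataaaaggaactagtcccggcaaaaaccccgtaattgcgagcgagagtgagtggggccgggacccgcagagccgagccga
The sterol regulatory element was matched in SREBF2, from base -133 to -125, and in none of the other 8 genes. It was matched in 1.13% of 35116 promoter windows of the same length. SREBF2 was shown because it is known to carry a sterol element, so that share is no test of its match. The pattern is strict, and variant forms of the element were not searched. The E-box was matched in INSIG1 from -55 to -50, in ABCA1 from -147 to -142 and in SCAP, against 7.26% of windows. A loose pattern of the DR4 element was matched in ABCA1, from -69 to -54, against 0.094% of windows. It was searched because ABCA1 is known to carry such an element. Besides the spacer, the pattern left a base open in each repeat, at the places where the repeats of the ABCA1 site differ. The match in ABCA1 was therefore known beforehand, and the share of windows is no test of it. The CCAAT box was matched in INSIG1, MYLIP, SREBF2 and STARD4 (34.6% of windows) and the GC box GGGCGG in all 9 genes (45% of windows). These matches describe letters in the windows, and no binding was measured.

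SREBF1 and SREBF2 each host a microRNA of the miR-33 family, which is known to repress ABCA1. The mature sequences are shown with the seed, bases 2 to 8, in capitals, because both share it and because its target sites lie in ABCA1. The sequences are from RefSeq (GRCh38.p14), at chr17:17813897-17813916 on the minus strand within SREBF1 and at chr22:41900949-41900969 on the plus strand within SREBF2.
hsa-miR-33b-5p: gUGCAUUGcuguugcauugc
hsa-miR-33a-5p: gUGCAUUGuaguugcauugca
The complement of the seed, CAATGCA, occurs 4 times in the longest annotated 3′ UTR of ABCA1 (3313 bases). It occurs once each in those of SCAP and NPC1, and not in those of the other 6 genes. Of 19115 genes with an annotated 3′ UTR 8.43% hold at least 1 such site and 0.0628% hold at least 4. The sites in ABCA1 were known beforehand, so these shares are no test of them. The UTRs counted were not matched in length. In ABCA1, 3 sites lie within bases 135 to 156 of the UTR, 2 of them overlapping, and the fourth lies at bases 1475 to 1481. These stretches are shown with the sites in capitals.
ABCA1 bases 128 to 157: tactattCAATGCAATGCAattCAATGCAa
ABCA1 bases 1468 to 1497: attgcaaCAATGCAaaagccaagaaagtat
The microRNAs themselves were not analysed here.

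Combo cells held less mRNA of both SREBP factors, of both INSIG sensors, of MYLIP and of STARD4, and more of the exporter ABCA1, than DMSO cells. Of the 9 genes 6 were called lower, against 8.80% of all genes tested, and 1 was called higher, against 7.22%. The 2 that did not pass were SCAP and NPC1. In bulk RNA, fewer cells that express a gene and less RNA per cell cannot be told apart. The median difference of the 9 genes was -0.69 on the log2 scale, against 0.03 for all genes. The share of mitochondrial mRNA in a library also moved with this contrast, at 2.66% to 3.54% in Combo, 1.85% to 3.2% in iEZH2, 1.8% to 2.83% in iDOT1L and 1.66% to 2.5% in DMSO, and its part in these results was not tested. In the plot of levels by library, 7 genes lay lower in every Combo library than in any DMSO library, against 10.3% of all genes, and ABCA1 lay higher in every one, against 9.62%.

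**Figure D1:**
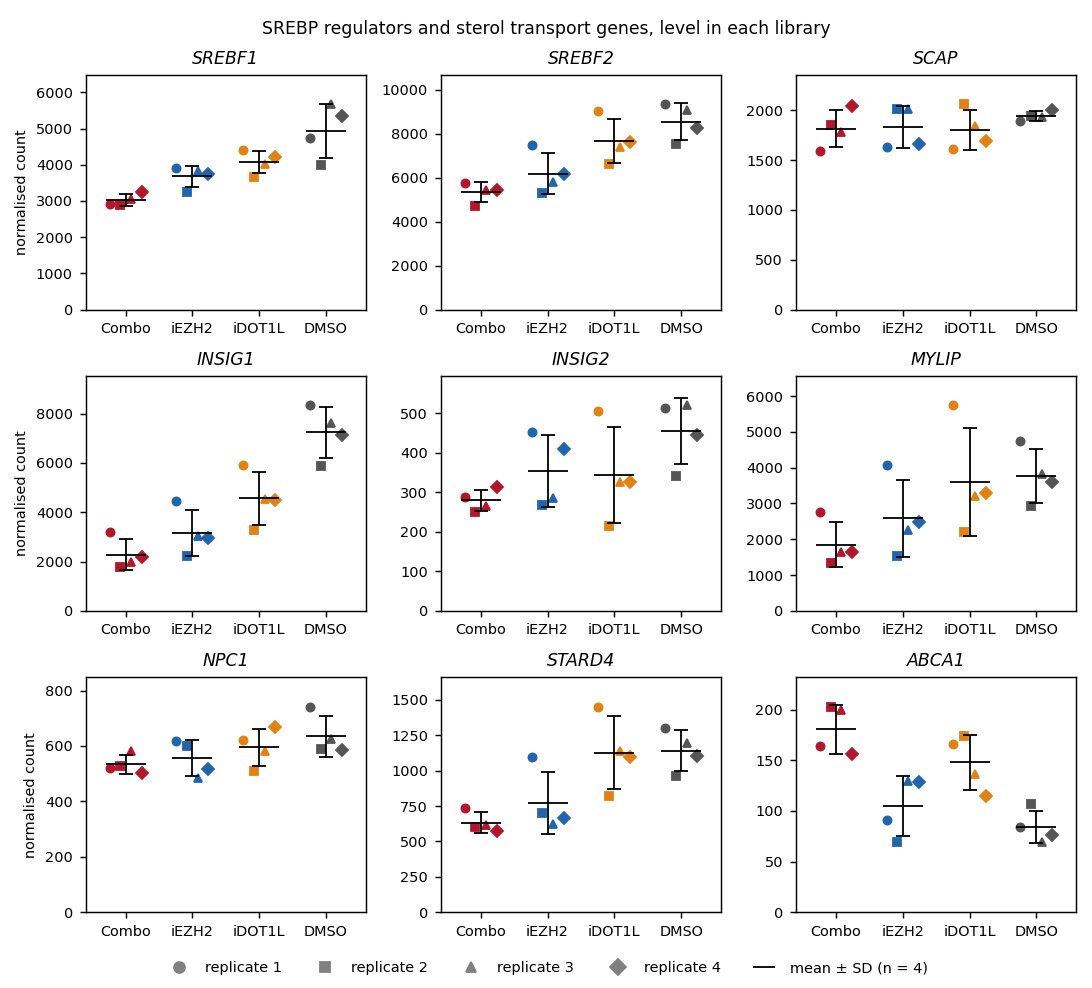
Normalised count of each gene (y axis, from 0, a separate scale per gene) in the 4 libraries of Combo, iEZH2, iDOT1L and DMSO, with symbols for the replicate number and lines for mean ± SD (n = 4). INSIG1 averaged 2280 in Combo and 7242 in DMSO, and ABCA1 averaged 180.7 in Combo and 84.2 in DMSO.

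Among the factors, SREBF2, the one known mainly for cholesterol genes, had 5781, 4729, 5446 and 5434 normalised counts in Combo libraries, 7469, 5312, 5793 and 6154 in iEZH2, 9048, 6628, 7384 and 7633 in iDOT1L, and 9360, 7522, 9067 and 8259 in DMSO. Every Combo and every iEZH2 library lay below every DMSO library, while iDOT1L and DMSO overlapped. SREBF2 fell by 0.68 ± 0.11 on the log2 scale in Combo (adjusted p = 0.000263) and by 0.47 ± 0.11 in iEZH2 (adjusted p = 0.0209). In iDOT1L the difference was -0.16 ± 0.11 (adjusted p = 0.496), with a 95% interval of -0.39 to 0.07.

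SREBF1, known for fatty acid genes through one of its isoforms, had 2928, 2881, 3066 and 3249 normalised counts in Combo libraries, 3900, 3237, 3827 and 3741 in iEZH2, 4401, 3658, 4032 and 4208 in iDOT1L, and 4749, 3991, 5681 and 5346 in DMSO. Combo and iEZH2 again lay wholly below DMSO, and iDOT1L overlapped it. The log2 difference from DMSO was -0.69 ± 0.10 in Combo (adjusted p = 7.38e-05) and -0.42 ± 0.10 in iEZH2 (adjusted p = 0.0246). In iDOT1L it was -0.27 ± 0.10 (adjusted p = 0.139). The ratio of SREBF1 to SREBF2 normalised counts averaged 0.569 ± 0.046 in Combo, 0.600 ± 0.057 in iEZH2, 0.534 ± 0.032 in iDOT1L and 0.578 ± 0.069 in DMSO; the 4 groups overlapped in this ratio. The table sums the isoforms of a gene, so those of SREBF1 cannot be told apart.

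INSIG1, the sensor that the factors themselves turn on, was lowest relative to DMSO of the 9 genes in Combo. It had 3201, 1789, 1966 and 2163 normalised counts in Combo libraries, 4468, 2214, 3037 and 2937 in iEZH2, 5903, 3285, 4543 and 4492 in iDOT1L, and 8336, 5874, 7612 and 7147 in DMSO. Combo and iEZH2 lay wholly below DMSO. Of the iDOT1L libraries 1, at 5903, lay just above the lowest DMSO library, at 5874, and the other 3 lay below all of DMSO. INSIG1 was at 0.309 times the DMSO level in Combo (log2 difference -1.69 ± 0.22, adjusted p = 4e-05) and at 0.427 times in iEZH2 (-1.23 ± 0.22, adjusted p = 0.00436). In iDOT1L the difference was -0.69 ± 0.22 and missed the threshold (adjusted p = 0.0729), but it passed with any 1 of 4 libraries left out, Combo 1, iEZH2 1, iEZH2 2 and iDOT1L 1 (adjusted p = 0.0358 to 0.0481).

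INSIG2, the sensor that is known to respond less to the factors, lay far lower than INSIG1 per length of transcript. It had 288.2, 250.6, 264.6 and 314 normalised counts in Combo libraries, 453.2, 268.1, 285.6 and 408.7 in iEZH2, 505.9, 214.4, 327.2 and 326.9 in iDOT1L, and 512.2, 340.4, 520.4 and 445.3 in DMSO. The Combo libraries lay below all DMSO libraries, and the single treatments overlapped DMSO. INSIG2 was called lower in Combo (-0.69 ± 0.22, adjusted p = 0.0365). The call was lost without any 1 of 7 libraries, namely all 4 of Combo and DMSO 1, 3 and 4 (adjusted p = 0.0501 to 0.102). The differences were -0.38 ± 0.22 in iEZH2 (adjusted p = 0.428) and -0.45 ± 0.22 in iDOT1L (adjusted p = 0.287). All these fits left the replicate number out. With it as a block, whose limit for Combo is given at the end, limma gave adjusted p = 0.00148 for Combo. The ratio of INSIG1 to INSIG2 normalised counts was 6.89 to 11.1 in Combo, 7.19 to 10.6 in iEZH2, 11.7 to 15.3 in iDOT1L and 14.6 to 17.3 in DMSO, so neither Combo nor iEZH2 reached the iDOT1L or the DMSO range.

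SCAP, the escort of the factors, passed in no comparison. It ranged over 1595 to 2040 normalised counts in Combo, 1633 to 2016 in iEZH2, 1613 to 2063 in iDOT1L and 1890 to 2004 in DMSO. All groups overlapped. The differences from DMSO were -0.10 ± 0.10 in Combo (95% interval -0.31 to 0.10), -0.09 ± 0.10 in iEZH2 (-0.30 to 0.12) and -0.11 ± 0.10 in iDOT1L (-0.32 to 0.09), with adjusted p of 0.542, 0.725 and 0.608.

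MYLIP, the ubiquitin ligase, varied widely between the libraries of a group, with 1846 ± 629 normalised counts in Combo and 3770 ± 749 in DMSO (mean ± SD, n = 4). By library it had 2763, 1331, 1640 and 1651 normalised counts in Combo libraries, 4070, 1542, 2252 and 2479 in iEZH2, 5744, 2203, 3205 and 3285 in iDOT1L, and 4735, 2923, 3823 and 3597 in DMSO. The Combo libraries lay below all DMSO libraries, with 2763 in Combo 1 close to 2923 in DMSO 2, and the single treatments overlapped DMSO. MYLIP was called lower in Combo (-1.06 ± 0.32, adjusted p = 0.0347), a call lost without any 1 of Combo 2, 3 and 4 and DMSO 1, 3 and 4 (adjusted p = 0.0654 to 0.0996). The difference was -0.61 ± 0.32 in iEZH2 (adjusted p = 0.385) and -0.13 ± 0.32 in iDOT1L (adjusted p = 0.894). The iDOT1L difference turned to 0.08 without iDOT1L 2. All these fits left the replicate number out. With it as a block, whose limit for Combo is given at the end, limma gave adjusted p = 2.47e-07 for Combo.

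NPC1, the lysosomal transporter, ranged over 502.6 to 580.6 normalised counts in Combo, 485.6 to 619.1 in iEZH2, 508.5 to 669.7 in iDOT1L and 585.8 to 742 in DMSO. Every Combo library lay below every DMSO library by a narrow margin, and the single treatments overlapped DMSO. The differences were -0.25 ± 0.11 in Combo (adjusted p = 0.146), -0.19 ± 0.11 in iEZH2 (adjusted p = 0.429) and -0.10 ± 0.11 in iDOT1L (adjusted p = 0.726), so NPC1 passed in none. Of the 31-base words in its transcripts 3.5% also occur in other genes, the highest share of the 9.

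STARD4, the intracellular sterol carrier, had 739.6, 600.3, 618.5 and 572.4 normalised counts in Combo libraries, 1095, 700.7, 625.8 and 668.4 in iEZH2, 1453, 819.8, 1142 and 1098 in iDOT1L, and 1300, 962.9, 1198 and 1107 in DMSO. Combo lay wholly below DMSO, iEZH2 lay below it but for 1 library at 1095, and iDOT1L ranged on both sides of it. STARD4 fell in Combo (-0.85 ± 0.17, adjusted p = 0.00181). In iEZH2 the difference of -0.59 ± 0.17 missed the threshold (adjusted p = 0.0662), and it passed without any 1 of iEZH2 1, iDOT1L 1 and iDOT1L 2 (adjusted p = 0.00687 to 0.0421). In iDOT1L the difference was -0.04 ± 0.17 (adjusted p = 0.946, 95% interval -0.40 to 0.32), and its sign turned without iDOT1L 2 (0.11) or without DMSO 1 (0.03).

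ABCA1, which exports cholesterol to apolipoprotein A-I, moved the other way. It had 164.2, 203.1, 199.3 and 156.2 normalised counts in Combo libraries, 91.2, 69.6, 129.4 and 128.8 in iEZH2, 166.4, 173.9, 136.7 and 115 in iDOT1L, and 84.5, 106.7, 69.6 and 76.1 in DMSO. Every Combo and every iDOT1L library lay above every DMSO library, while iEZH2 and DMSO overlapped. ABCA1 was at 2.15 times the DMSO level in Combo (1.10 ± 0.20, adjusted p = 0.00085) and at 1.75 times in iDOT1L (0.81 ± 0.20, adjusted p = 0.021). The iDOT1L call was lost without any 1 of iDOT1L 1, iDOT1L 2, DMSO 3 and DMSO 4 (adjusted p = 0.059 to 0.0723). In iEZH2 the difference was 0.28 ± 0.20 (adjusted p = 0.552), with a 95% interval of -0.14 to 0.71. On the deposited log2 scale, which compresses low levels, the Combo difference was 0.59 and the iDOT1L difference 0.42. The summed level of the 10 myeloid markers was 37600 to 47200 in Combo, 25380 to 29070 in iEZH2, 36410 to 40340 in iDOT1L and 29240 to 31350 in DMSO. The listed markers did not move as one. LYZ had 11730 to 21830 in Combo, 3418 to 6541 in iEZH2, 7212 to 12080 in iDOT1L and 2225 to 2640 in DMSO, and MPO had 4627 to 5901 in Combo, 871.7 to 2288 in iEZH2, 4374 to 5597 in iDOT1L and 781.1 to 1078 in DMSO. FLT3 had 3240 to 3988 in Combo and 8234 to 10900 in DMSO, ITGAM had 153.7 to 254.5 in Combo and 677.9 to 1208 in DMSO, and the CEBPA ranges overlapped in all groups. The part of these markers in the ABCA1 result was not tested.

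**Figure D2:**
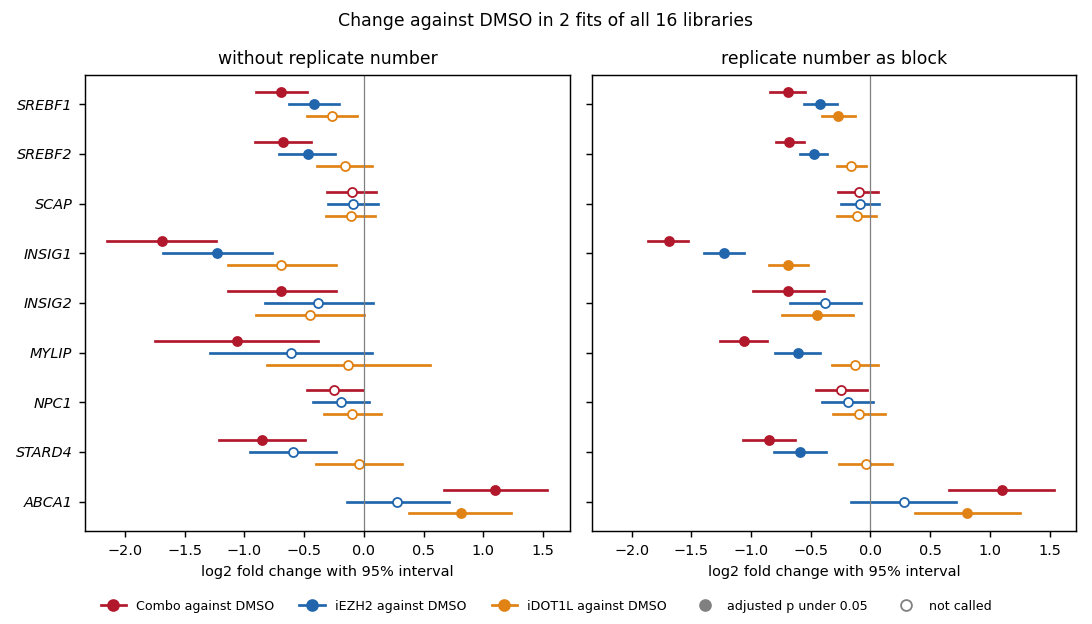
Log2 fold change against DMSO (x axis) of each gene with its 95% interval, for Combo, iEZH2 and iDOT1L, in the fit without the replicate number (left) and with it as a block (right). Filled points have an adjusted p under 0.05. INSIG1 lies furthest left at -1.69 in Combo, ABCA1 lies right of 0, and the intervals of INSIG1, MYLIP and SREBF2 narrow in the right panel.

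Counted by treatment, 3 of the 9 genes were called lower with iEZH2 (SREBF1, SREBF2 and INSIG1), against 2.05% of all genes, and none higher, against 1.30%. The SREBF1 call was lost without any 1 of iEZH2 2, iEZH2 4, DMSO 1, DMSO 3 and DMSO 4 (adjusted p = 0.05 to 0.106), and the SREBF2 call without any 1 of iEZH2 2, iEZH2 3, DMSO 1 and DMSO 3 (adjusted p = 0.07 to 0.0797). The INSIG1 call held without each of the 16 libraries. With iDOT1L none was called lower, against 3.17% of all genes, although SREBF1 and INSIG1 had an unadjusted p under 0.05. ABCA1 alone was called higher, against 3.08%. The median difference of the 9 genes was -0.42 in iEZH2 and -0.13 in iDOT1L. Since all treatments share the DMSO libraries, their differences from DMSO are not independent of each other.

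Libraries with the same replicate number moved together, and for several of these genes the same number held the top or the bottom place in every group, while the places between varied. Number 1 was the highest of its group in all 4 groups for 4 genes, SREBF2, INSIG1, MYLIP and STARD4. Number 2 was the lowest in all 4 groups for 5 genes, SREBF1, SREBF2, INSIG1, INSIG2 and MYLIP. MYLIP deviated from its group mean by 0.62 on average in number 1 and by -0.51 in number 2 on the log2 scale. For INSIG1 these averages were 0.42 and -0.38, for INSIG2 0.31 and -0.38, for STARD4 0.34 and -0.21, and for SREBF2 0.20 and -0.19. SCAP was lowest in number 1 in all 4 groups (-0.13), and ABCA1 followed no such order, with averages of -0.02 and 0.06. What the number marks is not stated in the labels.

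**Figure D3:**
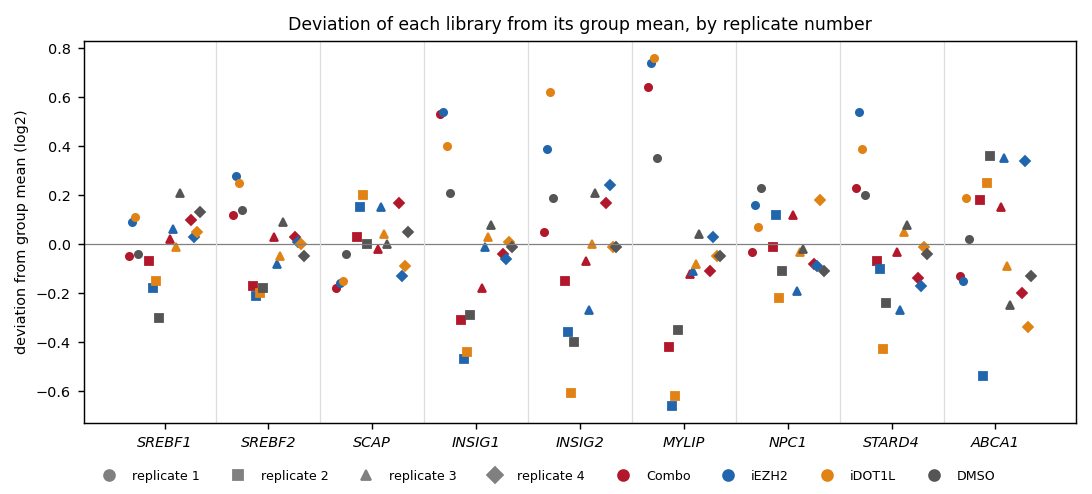
Deviation of each library from its group mean (y axis, log2) for each gene, with symbols for the replicate number and colours for Combo, iEZH2, iDOT1L and DMSO. Circles (number 1) lie above 0 and squares (number 2) below 0 in all groups for SREBF2, INSIG1, INSIG2, MYLIP and STARD4.

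With the replicate number as a block, 5 genes were called lower in iEZH2 against DMSO, against 5.89% of all genes. MYLIP (adjusted p = 0.000347) and STARD4 (adjusted p = 0.00133) joined SREBF1, SREBF2 and INSIG1. In iDOT1L against DMSO the blocked fit called 3 genes lower, against 6.53% of all genes, namely SREBF1 (adjusted p = 0.0135), INSIG1 (adjusted p = 1.7e-05) and INSIG2 (adjusted p = 0.0453). It called ABCA1 higher (adjusted p = 0.016), against 5.69% of all genes. SREBF2, at -0.16 ± 0.06, did not pass there (adjusted p = 0.0726), nor did STARD4 (adjusted p = 0.878). The sizes of the differences are those of the fit without the block, since every number occurs once in each group. The blocked fit uses all 16 libraries, so its SE and adjusted p rest on Combo libraries too, whose limit is given at the end.

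The treatments were then set against each other. Adding GSK126 to EPZ5676, that is Combo against iDOT1L, lowered 4 of the 9 genes, against 1.48% of all genes. STARD4 differed by -0.81 ± 0.17 (adjusted p = 0.0162), SREBF2 by -0.52 ± 0.11 (adjusted p = 0.0172), INSIG1 by -1.01 ± 0.22 (adjusted p = 0.0207) and SREBF1 by -0.43 ± 0.10 (adjusted p = 0.0281). All 4 calls were lost without iDOT1L 1 (adjusted p = 0.069 for STARD4, 0.0731 for SREBF2, 0.0801 for INSIG1 and 0.1 for SREBF1). The SREBF1 call was also lost without any 1 of Combo 1, 2 and 3 and iDOT1L 3 and 4, where its adjusted p was 0.0585 or more. The INSIG1 call was lost without any 1 of Combo 2, 3 and 4 and iDOT1L 3 (adjusted p of 0.0505 or more), and the STARD4 call without Combo 4 (adjusted p = 0.0565). MYLIP differed by -0.94 ± 0.32 (adjusted p = 0.148) and ABCA1 by 0.30 ± 0.20 (adjusted p = 0.501). All these fits left the replicate number out. With it as a block limma gave STARD4, SREBF2, INSIG1 and SREBF1 adjusted p of 0.000143, 4.07e-05, 2.88e-06 and 0.000829. Of all genes 6.26% were called lower there, and the limit of the block for Combo is given at the end.

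Adding EPZ5676 to GSK126, that is Combo against iEZH2, raised ABCA1 alone of the 9 genes, against 2.08% of all genes. The difference was 0.82 ± 0.20 (adjusted p = 0.0275), and every Combo library lay above every iEZH2 library. The call was lost without any 1 of Combo 2, Combo 3, iEZH2 1 and iEZH2 2 (adjusted p = 0.069 to 0.097), and with only the libraries of these groups in the fit (adjusted p = 0.0693). None was called lower, against 1.72% of all genes. SREBF1 differed by -0.28 ± 0.10 (adjusted p = 0.157), SREBF2 by -0.20 ± 0.11 (adjusted p = 0.411) and INSIG1 by -0.46 ± 0.22 (adjusted p = 0.313). Of these, SREBF1 and INSIG1 had an unadjusted p under 0.05 with limma (0.0128 and 0.0461). With the replicate block SREBF1, SREBF2, INSIG1 and MYLIP were called lower, against 5.24% of all genes, and the limit of the block for Combo is given at the end.

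Between the single treatments, iDOT1L against iEZH2, none of the 9 genes was called by limma, against 6.94% of all genes in either direction, while 4 had an unadjusted p under 0.05. STARD4 was nearest, at 0.55 ± 0.17 (adjusted p = 0.0593), followed by SREBF2 at 0.31 ± 0.11 (adjusted p = 0.104), ABCA1 at 0.52 ± 0.20 (adjusted p = 0.149) and INSIG1 at 0.54 ± 0.22 (adjusted p = 0.164). Without iEZH2 1 STARD4, SREBF2 and INSIG1 passed (adjusted p = 0.00603, 0.0254 and 0.0401), and STARD4 passed without iDOT1L 2 as well (adjusted p = 0.0153). With the replicate block 4 genes were called higher in iDOT1L than in iEZH2, against 7.35% of all genes. They were INSIG1 (adjusted p = 0.000146), SREBF2 (adjusted p = 0.000905), STARD4 (adjusted p = 0.00144) and MYLIP (0.48, adjusted p = 0.00154).

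Whether the compounds together did more or less than the sum of their single effects was tested as the interaction on the log2 scale, Combo minus iDOT1L minus iEZH2 plus DMSO. None of the 9 genes was called, against 0.00% of all genes, and none had an unadjusted p under 0.05 with limma. The estimates ran from -0.32 ± 0.45 for MYLIP (95% interval -1.29 to 0.64) to 0.22 ± 0.30 for INSIG1 (-0.42 to 0.87). Leaving out 1 library moved MYLIP to between -0.54 (without Combo 1 or iEZH2 2) and -0.07 (without iDOT1L 1), and INSIG1 to between 0.05 (without Combo 1) and 0.40 (without iEZH2 1), with none called. For SREBF1 the estimate was -0.01 ± 0.14 (-0.30 to 0.29), for SREBF2 -0.04 ± 0.16 (-0.37 to 0.29) and for ABCA1 0.01 ± 0.29 (-0.59 to 0.62). With the block none was called either, and MYLIP alone had an unadjusted p under 0.05 (adjusted p = 0.719 with limma).

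Per kilobase of the longest coding transcript, the mean normalised count of INSIG1 was 757 ± 210 in Combo and 2410 ± 344 in DMSO (SD, n = 4). In DMSO cells INSIG1 stood first, followed by SREBF2 at 1590 ± 155, MYLIP at 1350 ± 268 and SREBF1 at 1160 ± 174. The spreads of SREBF2 and MYLIP overlapped, as did those of MYLIP and SREBF1. SCAP followed at 442 ± 10.7, STARD4 at 248 ± 31.1, INSIG2 at 176 ± 32.1 and NPC1 at 123 ± 14.3. ABCA1 stood last, at 17.2 ± 2.28 in Combo and 8.02 ± 1.54 in DMSO. In Combo cells the mean of SREBF2 was 997 ± 82.5, and its spread overlapped that of INSIG1, which in turn overlapped those of SREBF1 (713 ± 38.8) and MYLIP (660 ± 225).

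The genes most like INSIG1 over the 16 libraries, by Pearson r on log2(normalised count + 1) among 11192 genes, were CYP51A1 (0.991), HMGCS1 (0.991) and IDI1 (0.989), all enzymes of cholesterol synthesis. Within groups, after the group means were taken out, these r were 0.974, 0.976 and 0.942. Those most like SREBF2 were the fatty acid desaturase gene FADS2 (0.982), the calponin gene CNN2 (0.978) and the squalene synthase gene FDFT1 (0.973), with 0.928, 0.941 and 0.914 within groups. Those most like ABCA1 were the kinase gene CDK14 (0.936), the zinc-finger gene TSHZ3 (0.932) and the coronin gene CORO2A (0.928), with 0.814, 0.794 and 0.733 within groups. The libraries share their groups and replicate numbers, so these r describe the 16 libraries and were not tested.

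The other genes of the circuit were read from lists that leave out the 9. In Combo against DMSO 19 of 22 cholesterol synthesis genes were called lower, against 8.80% of all genes, and none higher, with a median of -0.82 against 0.03 for all genes. DHCR7, which makes the last step to cholesterol in one branch, averaged 943.7 ± 58 normalised counts in Combo and 2745 ± 169 in DMSO (-1.54 ± 0.11, adjusted p = 5.06e-08). With iEZH2 17 were called lower, against 2.05% of all genes (median -0.64), a count that came to 11 without iEZH2 2 or without DMSO 3. Leaving out a replicate number in all groups gave 2 to 18. With iDOT1L 4 were called lower, against 3.17% of all genes (median -0.34), and 16 with the replicate block, against 6.53%.

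Of 16 fatty acid synthesis genes 7 were called lower in Combo (median -0.50), against 8.80% of all genes, and none higher. SCD, the stearoyl-CoA desaturase, differed by -1.81 ± 0.17 (adjusted p = 1.23e-06), and the desaturase FADS1 differed by -1.12 ± 0.15 (adjusted p = 4.35e-05). With iEZH2 4 were called lower, against 2.05% of all genes, 2 without DMSO 3, and 7 with the block, against 5.89%. Leaving out a replicate number in all groups gave 0 to 4 with iEZH2. With iDOT1L 3 were called lower, against 3.17% of all genes, and 5 with the block, against 6.53%.

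Of 21 genes of sterol uptake and transport 5 were called lower in Combo (median -0.17), against 8.80% of all genes, and none higher. VLDLR, a lipoprotein receptor, averaged 890.6 ± 95.2 normalised counts in Combo and 1634 ± 175 in DMSO and differed by -0.87 ± 0.12 in Combo (adjusted p = 3.61e-05). The count of 5 was 2 without DMSO 1 and 3 without any 1 of Combo 1, Combo 3, Combo 4 and DMSO 4. With iEZH2 1 was called lower, against 2.05% of all genes, and 2 were without Combo 1 or DMSO 2. With the block 4 were lower and 1 higher, where 5.89% and 3.87% of all genes were. With iDOT1L none was called, where 3.17% of all genes were lower and 3.08% higher. The count was 1 lower without any 1 of Combo 2, iEZH2 2, iEZH2 4 and iDOT1L 1. It was 1 higher without any 1 of iEZH2 1, iDOT1L 4 and DMSO 4. With the block 3 were lower and 2 higher, where 6.53% and 5.69% of all genes were.

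The genes that process and turn over the SREBP factors had a median of -0.01 in Combo, with 1 of 14 called lower and 1 higher, which is near the shares of all genes (8.80% and 7.22%). The protease gene MBTPS2, which makes the second cut that frees the factors, differed by -0.49 ± 0.14 (adjusted p = 0.0204), a call lost without any 1 of Combo 3, Combo 4 and DMSO 1 (adjusted p = 0.0583 to 0.0767). PAQR3, which is known to tether SCAP to the Golgi, differed by 0.49 ± 0.14 (adjusted p = 0.0264), a call lost without any 1 of 5 libraries, Combo 2, Combo 3, DMSO 1, DMSO 3 and DMSO 4 (adjusted p = 0.054 to 0.0871). The count called lower was 2 without Combo 2. None of the 14 was called with iEZH2, except 1 higher without DMSO 2, or with iDOT1L. Of all genes 3.35% were called in either direction with iEZH2 and 6.25% with iDOT1L. With the block 2 were called higher with iEZH2 (3.87% of all genes), and 1 lower and 1 higher with iDOT1L (6.53% and 5.69%).

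LXR target genes, which include ABCA1 and MYLIP by their known regulation, did not move as one group in Combo, where 3 of 13 further targets were called lower, against 8.80% of all genes, and 2 higher, against 7.22% (median -0.41). SMPDL3A, a phosphodiesterase gene, averaged 171.9 ± 23.5 normalised counts in Combo and 52.6 ± 5.61 in DMSO (1.69 ± 0.20, adjusted p = 7.9e-06). SCD (given above), LPCAT3 (-0.46 ± 0.09, adjusted p = 0.000898) and NR1H3 were called lower. With iDOT1L 2 targets were called higher, against 3.08% of all genes, SMPDL3A (0.76 ± 0.20, adjusted p = 0.0252) among them, and SCD was called lower, against 3.17%. That count of 2 was 1 without any 1 of iDOT1L 1, iDOT1L 4, DMSO 2, DMSO 3 and DMSO 4. With iEZH2 SMPDL3A was called higher (0.73 ± 0.20, adjusted p = 0.0482), a call that held without Combo 1, iEZH2 1, iDOT1L 1 or iDOT1L 2 and was lost without each of the other libraries. It was also lost on the deposited log2 scale, under median ratio scaling, with only the compared groups, and without the robust option. Of all genes 1.30% were called higher with iEZH2. SCD was called lower with iEZH2, against 2.05% of all genes, and 2 targets were without any 1 of iEZH2 1, iEZH2 3, iDOT1L 2 and DMSO 2, and 3 with the block, against 5.89%. On the deposited log2 scale, which compresses low levels, the Combo difference of SMPDL3A was 0.83.

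Of 7 genes for the LXRs and the oxysterol enzymes 3 were called lower in Combo (median -0.25), against 8.80% of all genes. NR1H3, which encodes LXR alpha, averaged 78.7 ± 10.9 normalised counts in Combo and 127.9 ± 33.5 in DMSO (-0.67 ± 0.19, adjusted p = 0.0205), a call lost without Combo 1 or without DMSO 3 (adjusted p = 0.06 without the first and 0.0822 without the second). NR1H2, which encodes LXR beta, differed by -0.25 ± 0.07 (adjusted p = 0.0268), a call lost without any 1 of Combo 4, DMSO 3 and DMSO 4 (adjusted p = 0.069 to 0.0893). That call was also lost under median ratio scaling, and with only the compared groups in the limma fit (adjusted p = 0.0538). HSD3B7, an enzyme of bile acid synthesis that acts on oxysterols, averaged 35.8 ± 8.19 in Combo and 70.5 ± 8.36 in DMSO (-0.98 ± 0.23, adjusted p = 0.00572). On the deposited log2 scale the differences were -0.34 for NR1H3 and -0.37 for HSD3B7. The count of 3 was 1 without DMSO 3. None of the 7 was called with iEZH2 or iDOT1L, where 3.35% and 6.25% of all genes were called in either direction. With iEZH2 under the block 1 was called lower, against 5.89%.

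**Figure D4:**
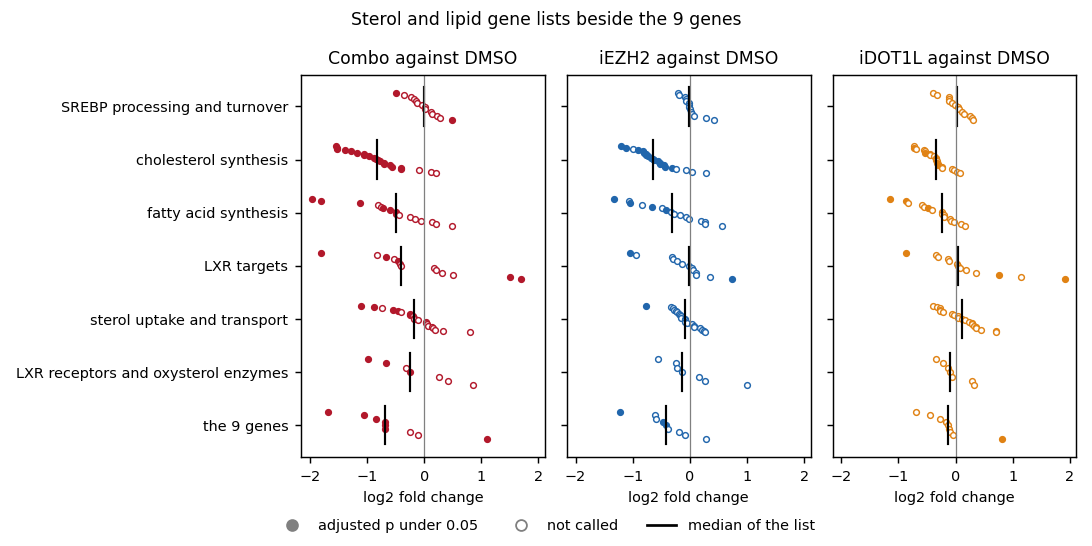
Log2 fold change against DMSO (x axis) of each gene in the 6 lists and of the 9 genes, for Combo, iEZH2 and iDOT1L. Filled points have an adjusted p under 0.05, and vertical bars mark medians. Cholesterol synthesis lies furthest left as a list, with medians of -0.82, -0.64 and -0.34, and SREBP processing and turnover is centred near 0.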

How the data were processed

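RNA-seq of 16 Molm14 libraries was analysed, grouped by the sample titles. The submitters' processing notes name kallisto, DESeq2 and hg38; tool versions, annotation and strandedness are not stated there. The table the authors deposited holds log2 values, scaled between samples and variance-stabilised, with a common lowest value of 6.28106 standing for 0 reads. They were turned back into normalised counts, in which 67.2% to 70.3% of low values lay within 0.1 read of a whole number. Of 22445 gene IDs 20784 matched GENCODE 29.

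The 9 genes, the lists and the named genes (the 2 of lowest adjusted p in each list, every call of a list with at most 3, and the 3 genes most like INSIG1, SREBF2 and ABCA1 with a mean of at least 50) were chosen with earlier results of these data known. LPCAT3 and calls in iEZH2 or iDOT1L were added after their values were seen.

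Genes above 1 normalised count in at least 4 libraries were tested with limma 3.58.1 (R 4.3.3; trend and robust, pseudocount 1, 4 group means, 12 residual degrees of freedom). The step was tested on simulated data that held no effect of the replicate number, so that setting was not covered. Same-number libraries correlated, after group means were taken out, at 0.198 to 0.581 for iEZH2 and DMSO, 0.109 to 0.500 for iDOT1L and DMSO and 0.113 to 0.639 for iEZH2 and iDOT1L over 12270 genes with a mean of at least 50. Over all 22331 tested genes the lowest such r was under 0.1 for each. These comparisons were also read with the number as a block, in a fit of all 16 libraries that includes Combo. Alternatives changed the scale, pseudocount, filter, scaling, libraries and moderation. A few genes of the lists were not analysed or are not reported here.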

Additional observations from a re-analysis of the deposited data

Results flagged for a closer look

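STARD4 had 1 library far from the others of its group: iEZH2 1 had 1095 normalised counts, against 625.8 to 700.7 in the other iEZH2 libraries, a gap of 0.84 of the group's range. It was the 1 such case in 36 sets of 4 libraries, and chance flags about 1 in 20. The number 1 library was also the highest of its group for STARD4 in Combo, iDOT1L and DMSO.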

How the results depend on the processing

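The main counts of the 9 genes called were 7 (Combo against DMSO), 3 (iEZH2 against DMSO), 1 (iDOT1L against DMSO), 4 (Combo against iDOT1L), 1 (Combo against iEZH2), 0 (iDOT1L against iEZH2) and 0 (interaction). The replicate block gave 7, 5, 4, 5, 5, 4 and 0 in the same order. Combo libraries correlated with same-number libraries of other groups at 0.036 to 0.481, not all above 0.1. Blocked comparisons with Combo were therefore read as an alternative only. All blocked comparisons come from the same fit of all 16 libraries. Those without Combo therefore also take their replicate terms and scatter partly from Combo libraries. In Combo against iEZH2 the block added SREBF1, SREBF2, INSIG1 and MYLIP as lower (adjusted p = 0.0142, 0.0288, 0.000909 and 0.00372), and in Combo against iDOT1L MYLIP (adjusted p = 1.53e-05). Of all genes the block called 5.24% lower in Combo against iEZH2 and 6.26% in Combo against iDOT1L. A filter at a mean of 10 gave 1 in iDOT1L against iEZH2, and fitting the compared groups alone gave 2 in iDOT1L against DMSO and 0 in Combo against iEZH2. With those groups alone SREBF1 in iEZH2 against DMSO missed the threshold (adjusted p = 0.084) and INSIG1 in iDOT1L against DMSO passed (adjusted p = 0.0204). Leaving out 1 library gave 5 to 7, 1 to 4, 0 to 2, 0 to 4, 0 to 1, 0 to 3 and 0. Leaving out a replicate number in all groups, an alternative chosen after seeing the data, gave 5 to 7, 0 to 5, 0 to 2, 0 to 4, 0 to 1, 0 to 2 and 0. It ended the INSIG1 call in iEZH2 against DMSO without number 3 or 4. In iDOT1L against DMSO the sign turned for MYLIP (0.08 without iDOT1L 2, range over single libraries -0.38 to 0.08) and STARD4 (0.11 without iDOT1L 2, 0.03 without DMSO 1, 0.03 without number 2 in all groups, range over single libraries -0.17 to 0.11); the cause was not tested. INSIG2 in Combo against DMSO was also lost under median ratio scaling. Over all genes the block called 5499, 2180, 2729, 2240, 2136, 3185 and 0 in that order of comparisons, against 3579, 748, 1396, 577, 850, 1550 and 0 without it. Leaving out 1 library gave 2642 to 3741, 409 to 1046, 915 to 1509, 199 to 700, 493 to 1349, 964 to 1802 and 0 to 1, lowest in the second to sixth without DMSO 3, iDOT1L 3, iDOT1L 1, iEZH2 3 and iEZH2 3, and the shares of all genes called move with these counts. The compared groups alone gave 450 in iEZH2 against DMSO, 511 in Combo against iEZH2 and 1004 in iDOT1L against iEZH2. ABCA1, at 84.2 normalised counts in DMSO, had the fewest reads of the 9 genes.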
